A study of Mus musculus with 9 samples.

Results

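The 4 Hox clusters of the mouse genome, HoxA, HoxB, HoxC and HoxD, were examined in lists of binding sites from chromatin immunoprecipitation followed by sequencing (ChIP-seq) in embryonic stem cells of the mouse line E14Tg2A. Each cluster was taken as a window of the mm9 genome: HoxA at chromosome 6, 52090000 to 52225000 (135 kb), HoxB at chromosome 11, 96045000 to 96235000 (190 kb), HoxC at chromosome 15, 102740000 to 102875000 (135 kb) and HoxD at chromosome 2, 74480000 to 74610000 (130 kb). A site belonged to a cluster when at least 1 of its bases lay in the window. This gave 435 of the 22147 sites of all 4 lists: 169 of 4633 for Phf19, 131 of 8054 for Suz12, 29 of 8280 for trimethylated lysine 27 of histone H3 (H3K27me3) in control cells and 106 of 1180 for H3K27me3 in Phf19-depleted cells. The windows hold 38 Hox genes of the study's gene set, 10 in HoxA, 10 in HoxB, 9 in HoxC and 9 in HoxD.

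All groups used here share the E14Tg2A line, grown without feeder cells in serum with leukemia inhibitory factor. Phf19 (2 replicates, 1 list of the sites found in both) and Suz12 (1 library) were profiled in cells labelled wild type. H3K27me3 was profiled in 1 library of cells with a random hairpin (shRd, also labelled wild type) and 1 library labelled Phf19-depleted (shPhf19). The labels give a different antibody catalogue number for each H3K27me3 library, so depletion and antibody cannot be told apart. The level of Phf19 left after depletion was not measured in these lists. The lists hold positions only, with no height, score or read count, so depth is unknown and the mark may be present where no site is listed. With 1 library per H3K27me3 condition there is no replicate spread and no test of the condition. Intervals given are exact Clopper-Pearson 95% intervals, which cover counting error only, and neighbouring sites of 1 locus are not independent.

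Hox genes encode homeodomain transcription factors that give cells their position along the body axis. They lie in order: genes with low numbers (groups 1 to 4) are switched on first and act in anterior structures, and genes with high numbers (groups 9 to 13) act in posterior structures. In embryonic stem cells the clusters are silent and are classic targets of Polycomb repressive complex 2 (PRC2), which places H3K27me3. Suz12 is a core subunit of PRC2. Phf19 is one of the Polycomb-like proteins, accessory subunits that bind PRC2, H3K36 methylation and CpG-rich DNA. In RefSeq's gene order (GRCm38.p6), the anterior end is the low-coordinate end of HoxA and the high-coordinate end of HoxB, HoxC and HoxD. No mm9 gene annotation was used, so sites are described by cluster and by distance from the anterior edge of the window, and not by gene.

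Polycomb sites are known to lie on CpG-rich DNA, so the bases before the start of Hox genes were searched for CG, which reads the same on both strands. RefSeq's promoter table (GRCm38.p6) held 22 of the 38 genes with 24 promoters, of which HoxA and HoxD had 10 each, HoxB 3 and HoxC 1, so the values are mostly those of HoxA and HoxD. In the 250 bases before the start, these promoters had a median of 12.5 CG (range 2 to 35), against 6 over all 32851 promoters of the table. CG was found in 24 of 24 Hox promoters and in 92.1% of all promoters. Among all promoters, 31.5% reached the Hox median. The promoters of both ends of HoxD are shown, with CG in capitals, because in HoxD the ends differed in opposite directions for Phf19 and control H3K27me3. They hold 31 CG (Hoxd13) and 24 CG (Hoxd1), the highest counts among the 10 HoxD promoters, whose median was 12.5. Their place relative to the mm9 sites was not determined.
Hoxd13 (posterior end, GRCm38.p6 chr2:74667975-74668224, plus strand): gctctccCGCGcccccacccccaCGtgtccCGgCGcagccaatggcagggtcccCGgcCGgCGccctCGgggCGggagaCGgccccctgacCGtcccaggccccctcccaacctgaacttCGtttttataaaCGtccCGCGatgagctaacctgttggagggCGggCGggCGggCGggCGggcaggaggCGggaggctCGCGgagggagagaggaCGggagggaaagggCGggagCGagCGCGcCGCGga
Hoxd1 (anterior end, GRCm38.p6 chr2:74762730-74762979, plus strand): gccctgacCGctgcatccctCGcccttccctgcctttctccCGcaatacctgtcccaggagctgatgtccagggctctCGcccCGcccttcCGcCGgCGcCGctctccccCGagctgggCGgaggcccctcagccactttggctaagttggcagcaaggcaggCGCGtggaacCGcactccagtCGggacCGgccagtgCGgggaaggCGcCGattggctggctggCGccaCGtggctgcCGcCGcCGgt

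The clusters also hold microRNA genes. Those with a seed found in more than 1 cluster are shown, with the seed (bases 2 to 8) in capitals, because they are content that the clusters share. Mir10a, inside RefSeq's span of Hoxb3, and Mir10b, inside the overlapping spans of Hoxd3 and Hoxd4, give mature 5p strands with the same seed. Mir196b, between Hoxa9 and Hoxa10, shares another seed with Mir196a-1, between Hoxb13 and Hoxb9, and Mir196a-2, between Hoxc10 and Hoxc9.
mmu-miR-10a-5p: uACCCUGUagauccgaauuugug
mmu-miR-10b-5p: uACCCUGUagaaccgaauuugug
mmu-miR-196b-5p: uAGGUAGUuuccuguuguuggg
mmu-miR-196a-5p: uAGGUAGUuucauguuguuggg

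Phf19 sites were dense in all 4 clusters. HoxA held 49, HoxB 46, HoxC 46 and HoxD 28, which is 36.3, 24.2, 34.1 and 21.5 sites per 100 kb. The rest of the same chromosomes held 0.163, 0.273, 0.147 and 0.249 sites per 100 kb, so the density was 223-fold, 88.7-fold, 231-fold and 86.6-fold higher in the windows. HoxA and HoxC thus stood above HoxB and HoxD in density and in fold. The HoxB window includes a gap of 43.3 kb with 0 Phf19 sites, which lowers its density. The windows carry 3.65% of all Phf19 sites and 5.60% of the length they cover.

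Hox Phf19 sites were also wider than the others. Their median width was 863 bp (quartiles 511 and 1320) against 458 bp outside the windows (370 and 738). By cluster the medians were 721 bp in HoxA, 980 bp in HoxB, 735 bp in HoxC and 960 bp in HoxD. The widest were chromosome 2, 74527906 to 74531869 (3963 bp, HoxD), chromosome 6, 52201636 to 52204612 (2976 bp, HoxA), chromosome 15, 102804693 to 102807467 (2774 bp, HoxC), and chromosome 11, 96145348 to 96147758 (2410 bp, HoxB). Each lay on Suz12, and that of HoxB was the only one of these 4 without a site of either H3K27me3 list.

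The sites followed each other closely. Between neighbouring Phf19 sites of a window the median gap was 0.315 kb, against 79.4 kb elsewhere. Gaps under 1 kb were 107 of 165 in the windows, 64.8%, and 33.5% of 4447 elsewhere. Joined wherever the gap was at most 10 kb, the Phf19 list fell into 2619 runs. The 4 runs with most sites were those of HoxA (35 sites over 84.9 kb), HoxC (35 sites over 65.2 kb), HoxB (25 sites over 44.4 kb) and HoxD (18 sites over 49.9 kb). The next in size, at chromosomes 3 and 2, had 17 sites each. The places depend on the gap allowed, except that of HoxA, which stayed at rank 1. HoxD was ranked 9 with gaps of at most 5 kb and 4 with gaps of at most 20 kb. HoxC was ranked 3 (17 sites) and 2, and HoxB 2 and 3, at these settings. Suz12 sites gave runs of 39 (HoxC), 35 (HoxB), 28 (HoxD) and 25 sites (HoxA), at ranks 1, 2, 4 and 5 of 6196. Rank 3 was a run of 29 sites at chromosome 6, outside the windows.

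**Figure D1:**
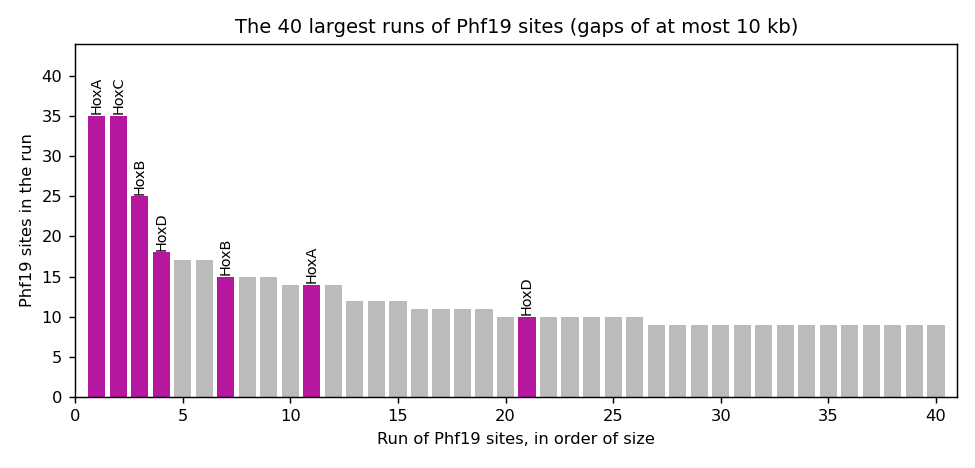
Number of Phf19 sites in the 40 largest runs of the genome, where a run is a series of sites with gaps of at most 10 kb. The bars of the Hox clusters are coloured and named; HoxA and HoxC have 35 sites, HoxB 25 and HoxD 18, and the largest run elsewhere has 17.

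Suz12 was listed over most of HoxA, HoxC and HoxD. Its sites covered 61.2% of the HoxA window, 47.7% of HoxB, 59.2% of HoxC and 55.8% of HoxD. Phf19 sites covered 35.6%, 23.9%, 32.0% and 28.6%. The order of the clusters was the same for both proteins, with HoxA first and HoxB last. The place of HoxB depends on the window drawn. It includes a gap of 43.3 kb with 0 Phf19 sites and Suz12 over 1.05% of its length, which lowers both values. The widest Suz12 sites were chromosome 6, 52160950 to 52173168 (12218 bp, with 5 Phf19 sites), chromosome 11, 96141925 to 96152742 (10817 bp, 6 Phf19 sites), chromosome 2, 74569881 to 74579419 (9538 bp, 5 Phf19 sites), and chromosome 15, 102810001 to 102814877 (4876 bp, 3 Phf19 sites). The largest number of Phf19 sites on 1 Suz12 site was 8, in HoxB.

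Nearly every Hox Phf19 site lay on Suz12: 163 of 169, 96.4% (92.4 to 98.7), where the whole list had 73.3%. All 28 sites of HoxD did, 48 of 49 in HoxA, 45 of 46 in HoxB and 42 of 46 in HoxC. The 6 without Suz12 were narrow, between 256 and 610 bp. They lay at chromosome 6, 52112078 to 52112688, at chromosome 11, 96122806 to 96123195, and at chromosome 15, 102741649 to 102742021, 102753107 to 102753363, 102783154 to 102783681 and 102834335 to 102834775. All of them overlapped H3K27me3 of at least 1 list, and 5 overlapped control H3K27me3.

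From the side of Suz12, 81 of 131 Hox sites carried Phf19, 61.8% (52.9 to 70.2), where the whole list had 23.9%. The share was 76.0% in HoxA, 53.8% in HoxB, 64.1% in HoxC and 57.1% in HoxD. Suz12 sites with Phf19 were wider, 2764 bp in the median against 965.5 bp for the 50 without it. A wider site meets more sites of any list, and the part of width in this share was not tested. Counted in bases, 51.2% of the Suz12 length in the windows lay under Phf19, between 49.1% in HoxB and 55.6% in HoxA, against 15.8% outside.

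**Figure D2:**
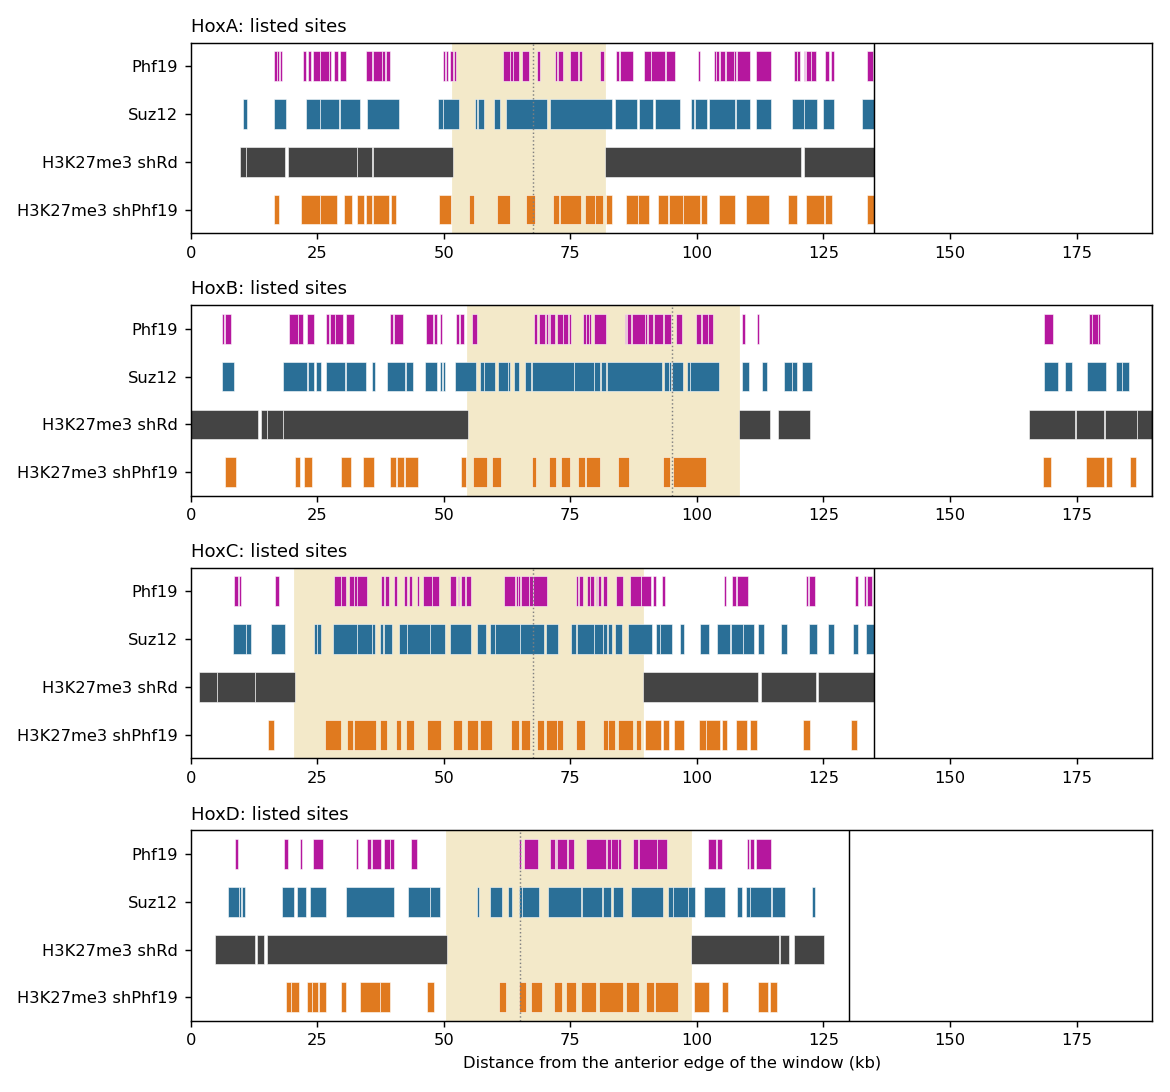
Listed sites of Phf19, Suz12 and H3K27me3 in shRd and shPhf19 cells along each window, against the distance from its anterior edge in kb. The dotted line is the middle of the window, the solid line its posterior edge (190 kb in HoxB), and the shaded band the stretch of 30.0 to 68.7 kb in which no shRd H3K27me3 site is listed although Phf19, Suz12 and shPhf19 sites are.

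Control H3K27me3 formed few and wide sites in the clusters. There were 7 in HoxA, 10 in HoxB, 6 in HoxC and 6 in HoxD, with a median width of 7938 bp against 2171 bp outside. They covered 69.7% of the HoxA window, 47.7% of HoxB, 47.1% of HoxC and 54.0% of HoxD. Suz12 overlapped 25 of the 29, 86.2% (68.3 to 96.1), with 69.6% for the whole list, and Phf19 overlapped 20, 69.0% (49.2 to 84.7), with 21.4% for the whole list.

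In HoxA, 6 of the 7 control sites were still listed after depletion, meaning that an shPhf19 site overlapped them. The exception was the narrowest, chromosome 6, 52099605 to 52100948, at the anterior edge. Its neighbour at 52100952 to 52108609 was covered over 12.1% of its length. Further in, the sites at 52109108 to 52122734, 52122773 to 52125748 and 52125977 to 52141804 were covered over 63.7%, 83.6% and 42.4%. On the posterior side, the 38.8 kb site at 52171839 to 52210635 and that at 52211076 to 52227809 were covered over 62.3% and 40.2%. Coverage was thus lowest at the anterior edge of HoxA.

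In HoxB, 6 of 10 control sites were still listed. Of the 4 at the posterior edge, those at chromosome 11, 96028958 to 96048072, 96048080 to 96054470 and 96054545 to 96060138 were covered over 37.4%, 37.0% and 63.3%. The last of them, 96060207 to 96069420, was covered over 15.7%. After a gap, 96112695 to 96118916 and 96120653 to 96126761 had no shPhf19 site. The wide anterior site, 96180330 to 96216880, was covered over 35.7%. Beyond it, 96216898 to 96219933 and 96219973 to 96221207, both without Suz12 and Phf19, had none, and 96221760 to 96241393 was covered over 10.9%.

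In HoxC, 4 of 6 control sites were still listed. On the posterior side, chromosome 15, 102737802 to 102751150 and 102751489 to 102762271 were covered over 8.52% and 12.5%, and the innermost, 102762909 to 102785658, over 66.7%. On the anterior side, 102854351 to 102862414 was covered over 14.1%, and 102862430 to 102869758 and 102869878 to 102873412 had no shPhf19 site. The site next to the middle of HoxC was the one with most of its length covered.

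In HoxD, 2 of 6 control sites were still listed, and these were the 2 widest. The site at chromosome 2, 74493709 to 74511251 was covered over 40.9% and that at 74559320 to 74595016 over 39.7%. The others lay at both edges: 74484889 to 74490768 and 74491773 to 74493526 on the posterior side, and 74595541 to 74596969 and 74597389 to 74605327 on the anterior side. None of these 4 had an shPhf19 site.

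Over the 4 clusters, 18 of 29 control sites stayed listed, 62.1% (42.3 to 79.3), where the whole list had 8.96%. Most of the Hox sites are wide, and wide sites stay listed more often across the genome. Among control sites of at least 5203 bp, the 90th percentile of that list, 17 of 22 Hox sites stayed, 77.3% (54.6 to 92.2), and 45.3% (41.8 to 48.8) of 806 sites outside the windows. Of the 590 outside sites of that class with Phf19, 53.9% (49.8 to 58.0) stayed, an interval that overlaps that of the Hox sites. The Hox sites of that class were still wider, 12065 bp in the median against 6786.5 bp. Of the 7 narrower Hox sites, 1 stayed (0.361 to 57.9%), and 4.82% of 7445 narrower sites outside. With Phf19, 17 of 20 Hox sites stayed, and 27.1% of 1756 such sites outside the windows. Without Phf19, 1 of 9 Hox sites stayed, and 3.83% of 6495 outside, so the split by Phf19 was not limited to the clusters. Sites with Phf19 were also wider, with medians of 13487 against 3035 bp in the clusters and 4071 against 1921 bp outside. The part of width in this split was not tested.

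**Figure D3:**
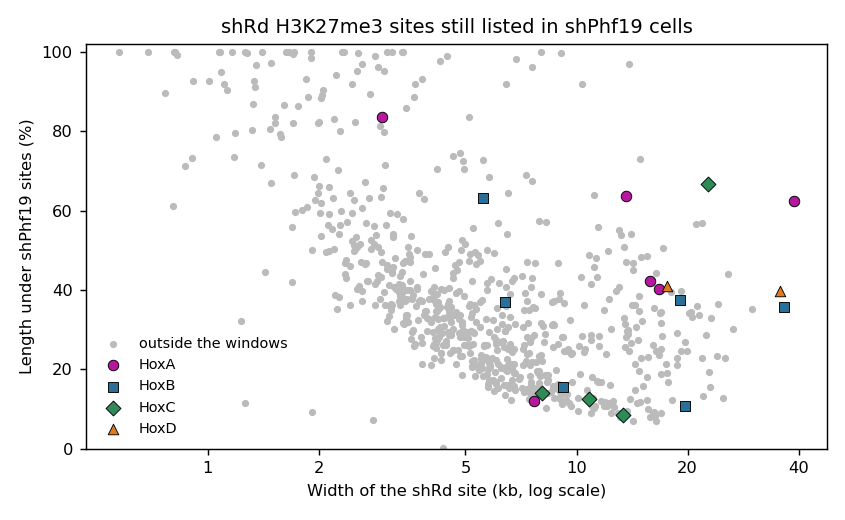
Width of each shRd H3K27me3 site still listed in shPhf19 cells (kb, log scale) against the percent of its length under shPhf19 sites. The 18 Hox sites are marked by cluster and the grey points are the 724 sites outside the windows; the Hox sites range from 8.52% to 83.6%, and the widest, in HoxA, is at 62.3%.

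Each cluster contained 1 long stretch with dense Phf19 and Suz12 and no control H3K27me3 site. These stretches were at chromosome 6, 52141804 to 52171839 (30.0 kb, HoxA), chromosome 11, 96126761 to 96180330 (53.6 kb, HoxB), chromosome 15, 102785658 to 102854351 (68.7 kb, HoxC) and chromosome 2, 74511251 to 74559320 (48.1 kb, HoxD). From the anterior edge they began at 51.8, 54.7, 20.6 and 50.7 kb and ended at 81.8, 108, 89.3 and 98.7 kb. All 4 included the middle of their window. Together they made up 200.4 kb of the 590 kb of the windows.

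The stretches were singled out for their dense sites, so their coverage is a description and supports nothing further. Suz12 covered 76.3% of the stretch in HoxA, 83.6% in HoxB, 74.5% in HoxC and 66.3% in HoxD. On the control sites of the same clusters it covered 62.4%, 49.9%, 43.8% and 57.6% of the bases. Phf19 covered 32.5%, 42.9%, 46.3% and 43.1% of the stretches, against 40.6%, 24.7%, 17.8% and 23.4% of the control bases. In HoxA, Phf19 covered less of the stretch than of the control sites.

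H3K27me3 was listed in the stretches in depleted cells. HoxA had 7 shPhf19 sites there, HoxB 10, HoxC 20 and HoxD 10, which covered 47.7%, 42.9%, 55.1% and 51.4% of the length. On control bases of the same clusters the shPhf19 sites covered 52.5%, 24.9%, 29.6% and 30.4%. All 47 Hox shPhf19 sites off control H3K27me3, all 80 such Phf19 sites and all 54 such Suz12 sites lay on these 4 stretches. Beside the stretches, 59 of 59 shPhf19 sites, 88 of 88 Phf19 sites and 72 of 72 Suz12 sites overlapped a control site. No signal track was used here, so the level of control H3K27me3 in the stretches was not tested. The widest control site listed anywhere in the genome was 38.8 kb, in HoxA, and the stretches of HoxB, HoxC and HoxD are longer than that. Whether wider control sites are missing from the list was not tested, and every count of sites off control H3K27me3 in the clusters rests on these stretches.

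No gap of this kind was found among those of 20 to 100 kb elsewhere, and longer gaps were not searched. The stretches were picked by Suz12 over at least 50% of their length, so the contrast in Suz12 coverage is only a description. Outside the windows there were 1490 gaps of 20 to 100 kb between neighbouring control sites, and 0 of them had Suz12 over at least 50% of their length. The highest Suz12 coverage among them was 26.2%, the median 0%, and the highest number of Phf19 sites 7, against 11, 24, 33 and 13 in the stretches of HoxA, HoxB, HoxC and HoxD. HoxB also held an ordinary gap, chromosome 11, 96069420 to 96112695 (43.3 kb), on its posterior side. It had 0 Phf19 sites, 0 shPhf19 sites and 1 Suz12 site that reached 1.05% of its length. Hoxb13, which RefSeq's order places next to Hoxb9, is known to stand apart from the rest of its cluster.

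Hox Phf19 sites overlapped listed control H3K27me3 less often than the list as a whole. The share was 89 of 169, 52.7% (44.9 to 60.4), where the whole list had 72.2%. It was 77.6% in HoxA, 47.8% in HoxB, 30.4% in HoxC and 53.6% in HoxD. For Suz12 sites it was 77 of 131, 58.8% (49.8 to 67.3), with 70.7% for the whole list. Leaving out the sites on the 4 stretches raised the Phf19 share to 100%, an alternative chosen after seeing the data. If control sites are missing from the list there, these shares are too low.

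In depleted cells the order was the opposite. Phf19 sites of wild-type cells overlapped an shPhf19 site in 125 of 169 cases, 74.0% (66.7 to 80.4), where the whole list had 20.7%. The shares were 81.6% in HoxA, 67.4% in HoxB, 73.9% in HoxC and 71.4% in HoxD. Suz12 sites did so in 94 of 131 cases, 71.8% (63.2 to 79.3), with 11% for the whole list. Sorted by all lists, 58 Phf19 sites had Suz12 and H3K27me3 of both conditions, 26 had Suz12 and control H3K27me3 alone, 63 had Suz12 and shPhf19 H3K27me3 alone, and 16 had Suz12 alone. The group of 63 was made up of 25 sites in HoxC, 18 in HoxB, 13 in HoxD and 7 in HoxA. All 80 Hox Phf19 sites off control H3K27me3 lay on the stretches without control sites, and the groups of 63 and 16 are among them. If control sites are missing from the list there, these groups and their order by cluster may not hold. Counts of the same classes over the whole Phf19 list are not given, so no comparison with it is drawn.

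The depleted cells' H3K27me3 list was concentrated in the clusters. Its Hox sites, 29 in HoxA, 23 in HoxB, 31 in HoxC and 23 in HoxD, were 8.98% of the list and 10.2% of its length, while the control list had 0.350% and 1.42% there. They covered 47.3%, 24.0%, 42.0% and 35.4% of the windows. Their runs, with gaps of at most 10 kb, held the first 5 ranks of 730: 30 sites in HoxC, 29 in HoxA, 18 in HoxB, and 14 and 9 in HoxD. The largest run elsewhere had 7.

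Site widths in depleted cells differed little on and off control H3K27me3 over all clusters, and more in HoxD. The median was 1573 bp for the 59 Hox sites on a control site (range 929 to 4580) and 1703 bp for the 47 others (923 to 6626). In HoxD it was 1296 bp on and 2014 bp off control sites, and in HoxA the order was the other way, 2033.5 and 1808 bp. Phf19 was present at 41 of the 59 and 40 of the 47, and Suz12 at 57 and 46. Over all 106, Phf19 was present at 76.4% (67.2 to 84.1), where the whole list had 55.7%, and Suz12 at 97.2% (92.0 to 99.4), with 82.5% for the whole list. The widest on a control site were chromosome 6, 52199700 to 52204280 (4580 bp), chromosome 2, 74572677 to 74576659 (3982 bp), chromosome 11, 96054480 to 96058085 (3605 bp), and chromosome 15, 102782028 to 102785356 (3328 bp). The widest off control sites were chromosome 11, 96133158 to 96139784 (6626 bp), chromosome 2, 74524525 to 74529271 (4746 bp), chromosome 15, 102838427 to 102842841 (4414 bp), and chromosome 6, 52162934 to 52167060 (4126 bp).

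The share of shPhf19 sites on a listed control H3K27me3 site was lower in the clusters than in the list. It was 59 of 106, 55.7% (45.7 to 65.3), where the whole list had 86.2%. HoxC had the lowest share, 11 of 31 sites, and HoxA the highest, 22 of 29. HoxB and HoxD each had 13 of 23. Sites with no control site were 13.8% of the whole list. All 47 Hox sites of this kind lie on the 4 stretches, so this share has the same limit as that of Phf19.

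Within control H3K27me3, the bases that stayed under a site after depletion were mostly those bound by Phf19 or Suz12. In the 4 windows 318.6 kb lay under control sites, of which 112.1 kb, 35.2%, also lay under shPhf19 sites. The share was 59.0% for bases under Phf19 sites, 42.3% for bases under Suz12 without Phf19 and 16.1% for bases under neither. Each cluster kept this order, with 71.9%, 67.7% and 20.9% in HoxA, 49.2%, 25.1% and 12.6% in HoxB, 47.2%, 43.0% and 16.9% in HoxC, and 50.5%, 35.4% and 15.2% in HoxD. Outside the windows the same order held at lower values, 22.1%, 7.36% and 3.29%. Phf19 and Suz12 were mapped in wild-type cells, and bases of 1 site are not independent, so no interval is given.

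**Figure D4:**
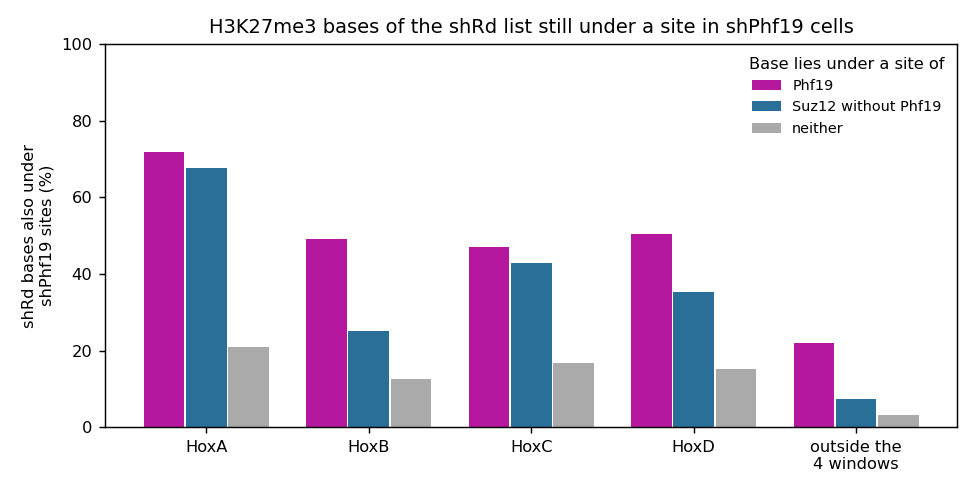
Percent of the bases under shRd H3K27me3 sites that also lie under a site in shPhf19 cells, for bases under Phf19, under Suz12 without Phf19, and under neither. In all 4 clusters and outside them the bars fall from Phf19 to neither, from 71.9% to 20.9% in HoxA and from 22.1% to 3.29% outside.

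Over the windows as a whole, H3K27me3 of depleted cells was listed most often on Phf19 bases. Listed control H3K27me3 covered the 3 kinds of bases to similar extents with the clusters pooled, but not in each cluster. Sites in depleted cells covered 60.5% of Phf19 bases, 43.9% of bases with Suz12 alone and 14.4% of the rest. Control sites covered 50.9%, 54.8% and 55.7% of these. The control values include the 4 stretches without control sites, where Phf19 covered 42.6% and Suz12 75.3% of the length. Their similarity therefore rests on the control list being complete there. In HoxC the control values were 26.3%, 44.9% and 66.0%, lowest where Phf19 was listed. In HoxA they were 79.5%, 60.1% and 67.5%, highest there. The same base shares were not counted outside the windows. Counted by sites, 18.7% of Phf19 sites and 10.0% of Suz12 sites (with or without Phf19) outside the windows overlapped an shPhf19 site. A higher share on Phf19 was thus not limited to the clusters.

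The anterior and posterior ends were compared by dividing each window at its middle. No list was denser at the same end in all 4 clusters. In HoxA every list covered more of the posterior side: Phf19 44.2% against 27.1%, Suz12 74.7% against 47.7%, control H3K27me3 78.1% against 61.4% and shPhf19 H3K27me3 59.6% against 34.9%. In HoxB every list covered more of the anterior side: Phf19 38.2% against 9.62%, Suz12 68.2% against 27.1%, control H3K27me3 56.9% against 38.5% and shPhf19 H3K27me3 33.2% against 14.8%. The gap of 43.3 kb lies on the posterior side of HoxB and counts in its length of 95 kb, of which control sites covered 36.6 kb. With the gap left out of the length, the order of the ends would turn for control H3K27me3 and stay for the other lists.

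In HoxD, control H3K27me3 and the proteins had opposite orders, and in HoxC the order of Suz12 depended on how the ends were drawn. In HoxC, control H3K27me3 covered 28.0% of the anterior side and 66.2% of the posterior side. Phf19 covered 34.2% and 29.8% there and Suz12 60.6% and 57.9%, differences of 4.44 and 2.67 percentage points. Between the outer parts of a window divided in 3, the Phf19 difference was 6.21 and the Suz12 difference turned to -0.02. With a division at the middle of the stretch that holds Suz12 sites, the differences were 13.5 for Phf19 and 14.3 for Suz12. In HoxD, control H3K27me3 covered 69.3% of the anterior side and 38.7% of the posterior side, while Phf19 covered 15.9% and 41.3% and Suz12 46.4% and 65.1%. H3K27me3 in depleted cells covered 24.2% and 46.7% in HoxD, the same order as the proteins, and 39.1% and 44.8% in HoxC. In HoxD the outer parts differed less, by -8.62 points for Phf19, -9.42 for Suz12 and -5.26 for shPhf19 H3K27me3 (anterior minus posterior). In HoxC the shPhf19 difference turned from -5.66 to 2.99 with the division by Suz12 sites. The stretch without control sites lies mostly on the anterior side of HoxC and mostly on the posterior side of HoxD, so the control values of the ends also rest on the list being complete there.

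**Figure D5:**
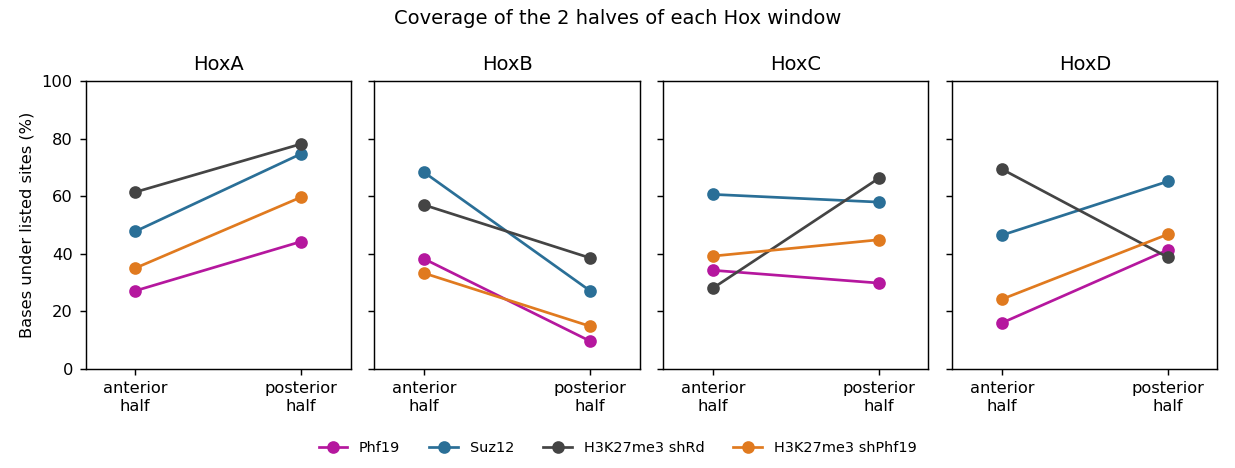
Percent of bases under listed sites on the anterior and posterior side of each window, divided at its middle, with 1 line per list. All lines rise from anterior to posterior in HoxA and fall in HoxB; in HoxD the shRd line falls from 69.3% to 38.7% while the Phf19, Suz12 and shPhf19 lines rise.

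The part of control bases that stayed under a site after depletion also differed by end. It was 45.4% on the anterior and 58.2% on the posterior side of HoxA, 28.1% and 20.1% in HoxB, 5.99% and 39.5% in HoxC, and 31.4% and 28.5% in HoxD. Outside the windows 6.64% of control bases stayed. HoxC's anterior side kept the smallest part, 1.13 of 18.9 kb, which is near that outside share, and the other ends lay above it. In the same side 26.4 kb were under shPhf19 sites, of which 4.29% lay on control sites, where the value outside the windows was 85.6%. On the anterior side of HoxD, 90.2% of the 15.7 kb under shPhf19 sites lay on control sites. The stretch without control sites lies mostly on the anterior side of HoxC and mostly on the posterior side of HoxD. All Hox shPhf19 sites off control H3K27me3 lie on such stretches. The shares of 4.29% and 90.2% therefore depend on where the stretch falls, and no difference between the ends is drawn from them.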

How the data were processed

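ChIP-seq sites of Phf19, Suz12 and H3K27me3 in shRd and shPhf19 cells were used. Samples of H3K36me3, H3K36me2 and IgG were not analysed here. Each deposited list gives the chromosome, start and end of every site in bp and no score. The submitters' processing notes name Bowtie 0.12.7, MACS 1.4.1 and the build mm9, with no role for any. How peaks were thresholded and filtered is not stated there. The authors kept for Phf19 the sites found in both replicates, per the series' design, and the other lists rest on 1 library each.

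Sites were assigned to windows and compared by overlap of at least 1 base. Width was end minus start, and coverage counted bases inside the window. Shares carry exact Clopper-Pearson 95% intervals. Sites were named by a rule: the widest of each list per cluster, every control site, the widest shPhf19 site on and off control sites, gaps over 20 kb between control sites, and Phf19 sites without Suz12. The members, lists and rules were chosen with earlier results of these data known. Alternatives were a stricter overlap (50% of the shorter site), only the wider sites of each list (from its median width up), merging H3K27me3 sites within 1 kb, shorter windows, other divisions into ends and other run gaps. Overlap counts equalled those of bedtools 2.31.1 in 12 of 12 comparisons, and the functions recovered the known answer in 50 of 50 simulated sets of sites. Coordinates are as listed, with an unstated base for starts (0 or 1). RefSeq tables (GRCm38.p6) gave gene order and sequences only. The software was scipy 1.17.1, pandas 2.3.3, numpy 2.4.6 and matplotlib 3.10.9 under Python 3.11.15.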

Additional observations from a re-analysis of the deposited data

How the results depend on the processing

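Of 84 alternatives, 67 stayed within the interval of the reported share, within 1.5 times the reported coverage or difference, or at the same rank. The other 15 moved and 2 reversed. Overlap of at least 50%, a minimum width and, for H3K27me3, merging left the 4 shares inside their intervals, and shorter windows left all 16 coverages within 1.5 times. The settings that leave out a cluster or the stretches were chosen after seeing the data. The share of Phf19 sites on control H3K27me3 was 42.5% without HoxA and 61.0% without HoxC. Leaving out sites on the 4 stretches raised it, and the share of shPhf19 sites on control H3K27me3, to 100%, since these stretches were defined by the lack of control sites. Of 32 alternative differences between the ends (anterior minus posterior, in points), 23 stayed within 1.5 times. Between the outer parts of windows divided in 3, Suz12 in HoxC reversed to -0.02, and HoxD gave -8.62 for Phf19, -9.42 for Suz12 and -5.26 for shPhf19 H3K27me3, while control H3K27me3 in HoxB gave 47.0. Divided at the middle of the stretch with Suz12 sites, shPhf19 H3K27me3 in HoxC reversed to 2.99, Phf19 and Suz12 in HoxC gave 13.5 and 14.3, and Suz12 in HoxA gave -14.7. With run gaps of at most 5 kb, HoxB, HoxC and HoxD held ranks 2, 3 and 9 among Phf19 runs, and with 20 kb HoxC held rank 2. Where the ends or ranks moved, the cause was not tested. With a single list common to both Phf19 replicates, neither of them could be left out. No paired analysis was possible because no list belongs to a numbered replicate.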

Other observations

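Neighbouring control H3K27me3 sites of a Hox window often lay almost end to end. Of 25 gaps between such neighbours, 8 were under 100 bp, 32.0%, and the smallest was 4 bp; outside the windows 6.80% of 8234 gaps were under 100 bp. The other lists showed the same direction, with 24.2% against 11.0% for Phf19, 23.6% against 3.85% for Suz12 and 11.8% against 2.65% for shPhf19 H3K27me3. Numbers of sites in the clusters therefore depend on where the lists divide a covered stretch, and joined within 1 kb the 29 control sites became 11.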
